A study of Mus musculus with 4 samples.

Results

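The genes described here encode the semaphorins, their plexin receptors, the Slit ligands, their Robo receptors, the netrins and their Unc5 receptors. They were taken from the count table by symbol, and 44 of its 23337 gene symbols matched. All 44 had at least 20 counts in at least 1 library, so none was left out. The least counted were Ntn5, Sema4f and Ntn3, which peaked at 52, 66 and 72 counts. They comprise 20 semaphorins (7 of class 3, 6 of class 4, 2 of class 5, 4 of class 6 and 1 of class 7), 9 plexins, 3 Slits, 4 Robo receptors, 4 netrins and 4 Unc5 receptors.

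The RNA was that of lymphatic endothelial cells of mouse embryos at day 14.5 of gestation, which were dissected at their dorsal anterior part. Flow cytometry took cells bearing LYVE1, found on lymphatic endothelium, and VECAD, the cadherin of endothelial junctions, and left out cells bearing CD45, found on leukocytes. The 4 groups were wild type cells straight from the sort, homozygous deletion mutant cells straight from the sort, and the remainder of each sort after 7 days of culture. The first pair are called fresh and the second pair cultured, and where 4 values follow each other without labels they are given as fresh wild type, fresh mutant, cultured wild type and cultured mutant. During culture the cells of both genotypes were grown on OP9, a mouse stromal cell line, with the cytokines FLT3L, IL3 and SCF at 100 ng/ml each, and were then sorted again on LYVE1 and VECAD, with no exclusion of CD45 stated. The title of the series speaks of an enhancer occupied by GATA2, a transcription factor. The labels do not name its gene, which in the published study is Prox1, the gene of the homeobox factor that specifies lymphatic endothelium. In that study the enhancer lies upstream of the gene and outside its exons, so Prox1 counts do not check the genotype labels. They were 2526, 4483, 284 and 459 in the 4 libraries, which differ in size. Scaled for library size, the mutant over wild type fold of Prox1 was 0.96 (0.914 to 1.01) before culture. After culture it was 0.664 (0.572 to 0.773). The embryos of a whole litter were pooled for each genotype, so litter and genotype cannot be told apart. With 1 library in each group there are no replicates and no p-values, and the 95% intervals given throughout cover counting error alone.

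Guidance molecules were named for steering growing axons, and the vascular system uses the same ligands and receptors. Secreted class 3 semaphorins mostly bind a neuropilin, which lends affinity, paired with a plexin, which signals through its cytoplasmic GTPase-activating domain. Sema3e binds plexin D1 directly, while class 4 to class 7 semaphorins bind plexins without needing a neuropilin. Slits are large secreted ligands of Robo receptors, and Robo4 is the member typical of endothelium. Netrins act through Dcc, neogenin and the Unc5 receptors, of which Unc5b is the one best known in blood vessels. In lymphatic vessels the signal from Sema3a to Nrp1 and plexin A1 is known for its part in shaping valves.

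Promoters were matched in RefSeq on GRCm38.p6 for 36 of the 44 genes, with 49 start sites in all. Only the 250 bases before each start were read. Of the genes called in the same direction in both genotypes, 3 called lower and 9 called higher had an entry. The promoters of 4 of these are printed, Sema3d and Sema3c lower after culture and Ntn4 and Robo4 higher. They were picked after their values were seen. Robo2 and Sema6d, the genes of that group with a match to the GATA motif given below, are not printed. The stretches are chr5:12382916-12383165, plus strand, for Sema3d, chr5:17574566-17574815, plus strand, for Sema3c, chr10:93640799-93641048, plus strand, for Ntn4, and chr9:37401722-37401971, plus strand, for Robo4. Capitals mark a match to the ETS motif CCGGAA on either strand, and stretches without capitals held neither that motif nor the GATA motif.
Sema3d: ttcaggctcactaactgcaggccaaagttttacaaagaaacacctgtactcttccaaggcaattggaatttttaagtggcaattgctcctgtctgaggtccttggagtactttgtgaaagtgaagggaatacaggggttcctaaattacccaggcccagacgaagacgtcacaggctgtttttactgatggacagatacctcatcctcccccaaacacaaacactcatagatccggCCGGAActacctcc
Sema3c: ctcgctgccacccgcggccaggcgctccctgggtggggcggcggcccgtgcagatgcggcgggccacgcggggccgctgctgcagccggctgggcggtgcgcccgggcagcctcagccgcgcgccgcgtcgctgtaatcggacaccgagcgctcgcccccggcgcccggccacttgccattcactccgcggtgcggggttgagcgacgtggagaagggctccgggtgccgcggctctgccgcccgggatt
Ntn4: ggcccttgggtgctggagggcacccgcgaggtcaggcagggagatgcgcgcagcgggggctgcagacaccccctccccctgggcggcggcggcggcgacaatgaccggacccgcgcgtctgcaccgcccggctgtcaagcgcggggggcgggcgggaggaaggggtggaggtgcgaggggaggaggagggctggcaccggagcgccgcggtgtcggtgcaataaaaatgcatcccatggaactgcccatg
Robo4: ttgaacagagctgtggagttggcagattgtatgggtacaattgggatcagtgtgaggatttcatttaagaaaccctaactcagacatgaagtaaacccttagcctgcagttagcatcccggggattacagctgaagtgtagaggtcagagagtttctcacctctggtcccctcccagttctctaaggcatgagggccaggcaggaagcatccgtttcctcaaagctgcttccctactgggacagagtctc
The GC content was 46.8% for Sema3d, 78.4% for Sema3c, 73.2% for Ntn4 and 49.6% for Robo4. Over all start sites in the table it ran from 44.8% to 78.4% for the 3 genes called lower in both genotypes that had an entry and from 45.2% to 73.2% for the 9 called higher. The GATA motif, searched as AGATAA or TGATAA on both strands, was present in 4 of the 49 start sites (8.16%), those of Plxna2, Robo2, Sema6d and Unc5b. It was present in 16.6% of all 32851 start sites in the table. The ETS motif was present in 5 of the 49 (10.2%), those of Plxnb1, Sema3d, Sema4a, Sema4b and Unc5b, and in 12% of all start sites. A GATA match and an ETS match can share an end base, and neither motif contains the other. Factors of both families act in endothelial genes. A match describes the letters in this window and not a bound site. Ntn1 and Sema3f had no entry.

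Levels are CPM (gene counts relative to library size) scaled by the trimmed mean of M values (TMM) and divided by the exon length, written CPM per kb. Gene counts totalled 1694669 to 7943587 per library, with the fewest in the cultured wild type library. Lyve1 and Cdh5, the genes of the sorting markers LYVE1 and VECAD, had 5341, 8196, 4843 and 9168 and 5000, 9820, 3405 and 7641 counts, and Ptprc, the gene of CD45, had 91, 118, 6 and 26. The libraries carried counts in genes that these cells should not use. Counts of the 1401 olfactory and vomeronasal receptor genes were divided by their coding length. This rate was 6.66 and 8.36 per kb in the fresh wild type and mutant libraries, and 0.534 and 1.62 in the cultured ones. Untranslated exons of these genes are left out of that length, so the rate can overstate the background. Spread over all exons, that rate amounts to 12.6% and 7.97% of gene counts in fresh and 2.39% and 3.13% in cultured cells. A gene was taken as above this background where the lower limit of its count exceeded 2 times the count expected from the rate. In that sense 32, 42, 31 and 35 of the 44 guidance genes stood above background in the 4 libraries. The share of all genes that passed this rule is not given here, so these counts cannot be set against it.

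**Figure D1:**
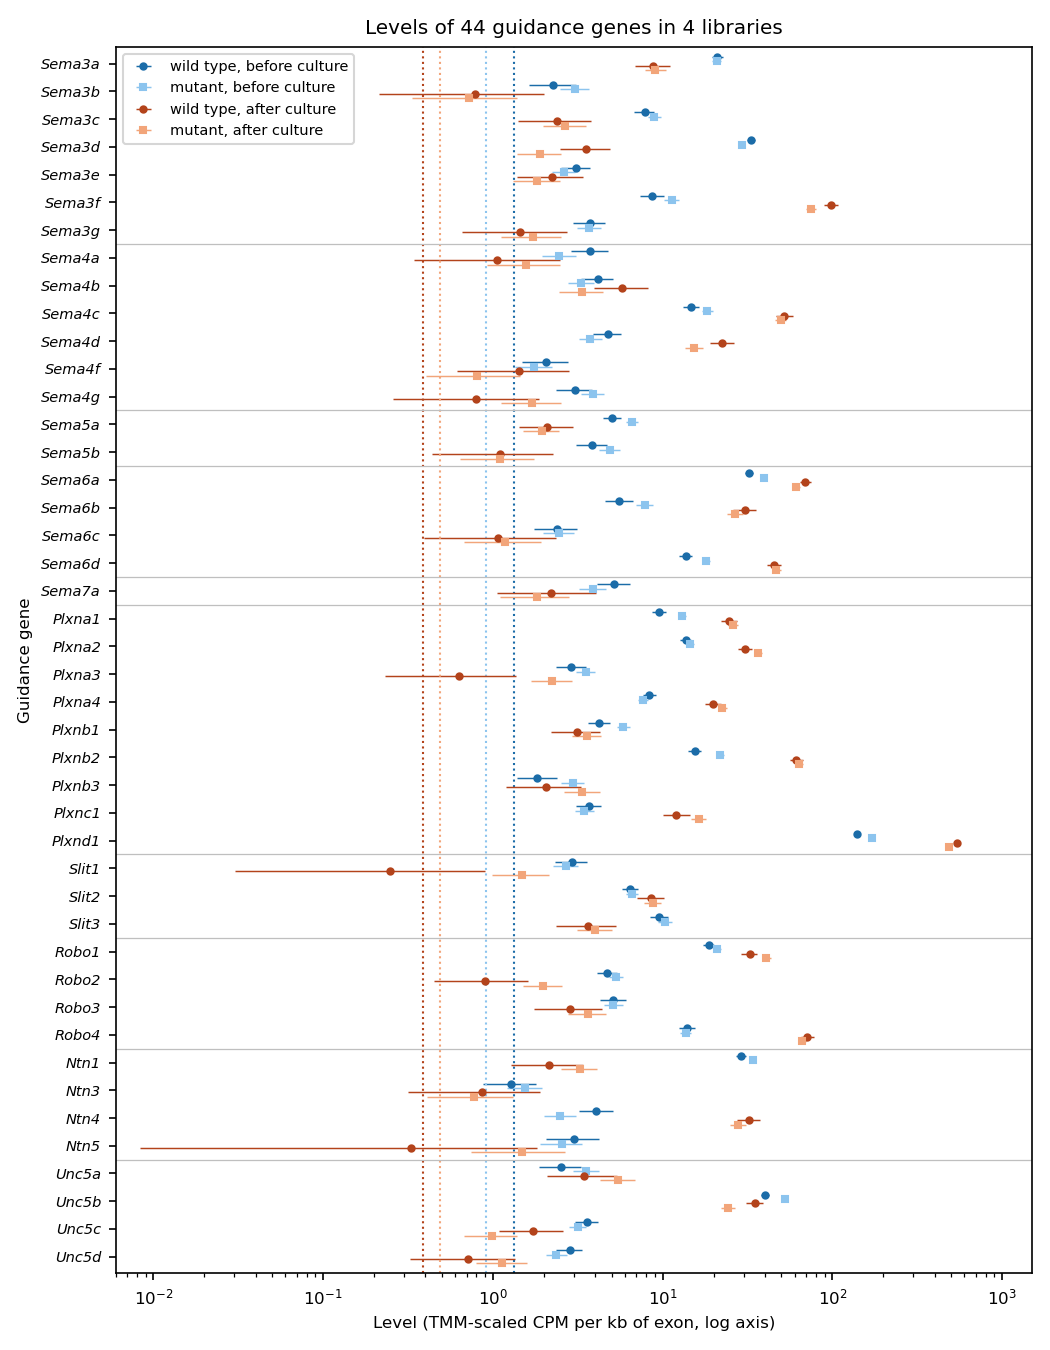
Level of each of the 44 guidance genes in the 4 libraries, as TMM-scaled CPM per kb of exon on a log axis, with 95% intervals for counting error. Dotted vertical lines give the background level of each library in its colour. Plxnd1 is the highest gene in every library, Sema3d and Ntn1 are far lower after culture, and Sema3f, Ntn4 and Robo4 are far higher.

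Before culture, the ligand genes with the highest levels per length were Sema3d, Sema6a, Ntn1 and Sema3a. Sema3d had 33.1 and 29.2 CPM per kb in the fresh wild type and mutant libraries and Sema6a had 32.3 and 39.5. Ntn1 had 29.1 and 34.1, and Sema3a had 21 and 20.8. The order of Sema3d, Sema6a and Ntn1 differed between the genotypes, and Sema3a came after them in both libraries. Among receptors, Plxnd1 stood first with 140.3 and 171 CPM per kb, followed by Unc5b with 40.2 and 52.7. Robo1 had 18.7 and 21, Plxnb2 15.4 and 21.9, and Robo4 14 and 13.7 CPM per kb. After culture Plxnd1 still stood first, while the highest ligand genes were Sema3f, Sema6a and Sema4c.

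Between fresh and cultured cells the guidance genes differed in both directions, each in the same direction in both genotypes under TMM scaling. In wild type cells 12 of 44 were called higher after culture, against 8.17% of all genes tested, and 7 were called lower, against 5.77%. In mutant cells 12 were called higher, against 5.19%, and 9 lower, against 3.62%. A gene was called where the whole interval of its fold lay beyond 2-fold. Each gene had the same side of 1 in both genotypes: 25 were below 1 in both, 19 above 1 in both and 0 on opposite sides. Of all genes tested in both genotypes, 43.9% were below 1 in both, 42.5% above 1 in both and 13.6% on opposite sides. The genotypes share no library in this pair of comparisons. Under CPM by total gene counts, Plxnb3, Sema4b, Slit2 and Unc5a crossed to below 1, the last in wild type cells alone. Those called lower in both were Ntn1, Robo2, Sema3c and Sema3d, and 11 were called higher in both: Ntn4, Plxna4, Plxnb2, Plxnc1, Plxnd1, Robo4, Sema3f, Sema4c, Sema4d, Sema6b and Sema6d. Of all genes, 1.7% were called lower in both and 4.93% higher in both. A further 10 were called in 1 genotype. For 7 of these the ratio of the genotypes' folds in culture had an interval that included 1, the other 3 being Plxna1, Plxna3 and Slit1. The median log2 fold of the 44 genes was -0.47 in wild type and -0.63 in mutant cells, beside -0.04 and -0.10 over all genes tested.

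These counts move with the scaling. With CPM by total gene counts, which shifts the median log2 fold of all genes by -0.62 in wild type and -0.45 in mutant cells, the split was 7 higher and 15 lower in wild type cells, against 3.01% and 17.4% of all genes. In mutant cells it was 7 higher and 12 lower, against 2.62% and 9.84%. Under that scaling Plxna4, Sema4c and Sema6d were called higher in neither genotype, Plxnb2 in wild type cells and Plxnc1 in mutant cells. With median-of-ratios size factors the split was 14 higher and 4 lower in wild type cells, against 9.2% and 5% of all genes, and Sema3c, Plxna3 and Unc5d lost their lower calls there. Subtracting the background counts shifts log2 folds by -0.44 and -0.21 through the scaling factors alone. It also changes the counts of each gene, and the resulting shift of the median is not given here. With that, 6 genes were lower in both genotypes, Sema3a and Slit3 having joined, and 10 were higher in both, Plxna4 having dropped out. The share of all genes called in both under that subtraction is not given here.

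**Figure D2:**
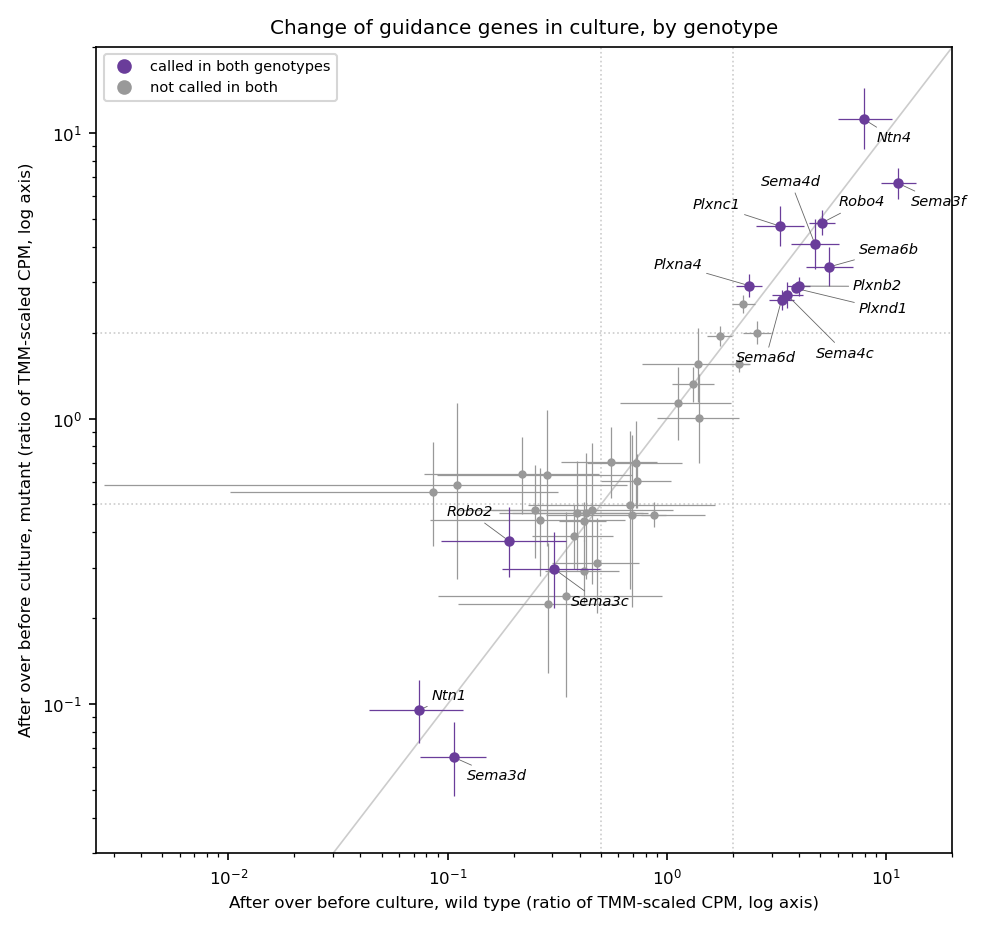
Fold of each of the 44 guidance genes in culture, in wild type cells (horizontal axis) and mutant cells (vertical axis), as ratios of TMM-scaled CPM on log axes with 95% intervals for counting error. Dotted lines mark 2-fold, the diagonal marks equal folds, and purple points are genes called in both genotypes: Sema3d and Ntn1 lie at the lower left, and Ntn4 and Sema3f at the upper right.

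Class 3 semaphorins, the secreted ligands of neuropilin and plexin complexes, moved in both directions in culture. Sema3d, a ligand known for its roles in heart and vessel patterning, had 33.1 and 29.2 CPM per kb in the fresh wild type and mutant libraries and 3.54 and 1.9 in the cultured ones, from 1221, 1991, 36 and 47 counts. Both libraries before culture were high and both after culture low. The level fell 9.36-fold (6.72 to 13.4) in wild type and 15.4-fold (11.5 to 21) in mutant cells, and background subtraction took the mutant drop to 23.1-fold (15.7 to 34). Sema3f, a ligand that binds Nrp2 in preference to Nrp1, went the other way, with 8.69 and 11.3 CPM per kb in the fresh libraries and 98.4 and 75.3 in the cultured ones (151, 363, 472 and 878 counts). It rose 11.3-fold (9.41 to 13.7) in wild type and 6.66-fold (5.89 to 7.55) in mutant cells. Among all class 3 semaphorins, summed per length, Sema3d held 41.5% and 36.7% before culture and 3.01% and 2.04% after it, while Sema3f went from 10.9% and 14.2% to 83.7% and 80.8%.

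Sema3a, the founding repulsive semaphorin, had 21 and 20.8 CPM per kb in the fresh libraries and 8.76 and 9.07 in the cultured ones (653, 1194, 75 and 189 counts). Its fold in culture was 0.416 (0.323 to 0.529) in wild type and 0.436 (0.372 to 0.509) in mutant cells, which was not called, since both intervals include drops of less than 2-fold; with background subtracted it was 0.314 (0.244 to 0.404) and 0.374 (0.318 to 0.439), and called lower in both. Sema3c had 7.82 and 8.95 CPM per kb in the fresh libraries and 2.38 and 2.67 in the cultured ones (214, 453, 18 and 49 counts) and fell 3.28-fold (2.03 to 5.64) in wild type and 3.36-fold (2.5 to 4.6) in mutant cells. Sema3a, Sema3c and Sema3d were thus all lower after culture than before it in both genotypes, with only the first outside the calls. Sema3b, from 42, 104, 4 and 9 counts, was called lower in mutant cells, by 4.19-fold (2.13 to 9.43), and had a fold of 0.345 (0.0899 to 0.952) in wild type cells. With background subtracted the drop in mutant cells was 10.3-fold (1.4 to 75), a wider interval that ended the call. Sema3e, the ligand of plexin D1, had folds of 0.725 (0.431 to 1.17) and 0.697 (0.485 to 0.983) and Sema3g, a ligand known from arteries, 0.388 (0.172 to 0.773) and 0.465 (0.295 to 0.708), none of them called.

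The netrins, laminin-related ligands, showed the same kind of exchange. Ntn1, the classical netrin, had 29.1 and 34.1 CPM per kb in the fresh wild type and mutant libraries and 2.15 and 3.24 in the cultured ones, from 883, 1913, 18 and 66 counts. It was high in both libraries before culture and fell 13.5-fold (8.51 to 22.9) in wild type and 10.5-fold (8.23 to 13.7) in mutant cells. With background subtracted the wild type drop was 21.3-fold. Ntn4, a netrin of basement membranes that binds laminin, had 4.07 and 2.5 CPM per kb in the fresh libraries and 32.3 and 27.9 in the cultured ones (74, 84, 162 and 340 counts), high in both libraries after culture. It rose 7.94-fold (5.99 to 10.6) and 11.2-fold (8.76 to 14.3). Per length, Ntn1 made up 77.7% and 83.8% of the 4 netrins before culture and 6.03% and 9.71% after it, and Ntn4 10.9% and 6.15% before and 90.6% and 83.5% after. Ntn3 and Ntn5 held 72 counts or fewer in every library and were not called. Ntn3 stood above background in none of the libraries.

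**Figure D3:**
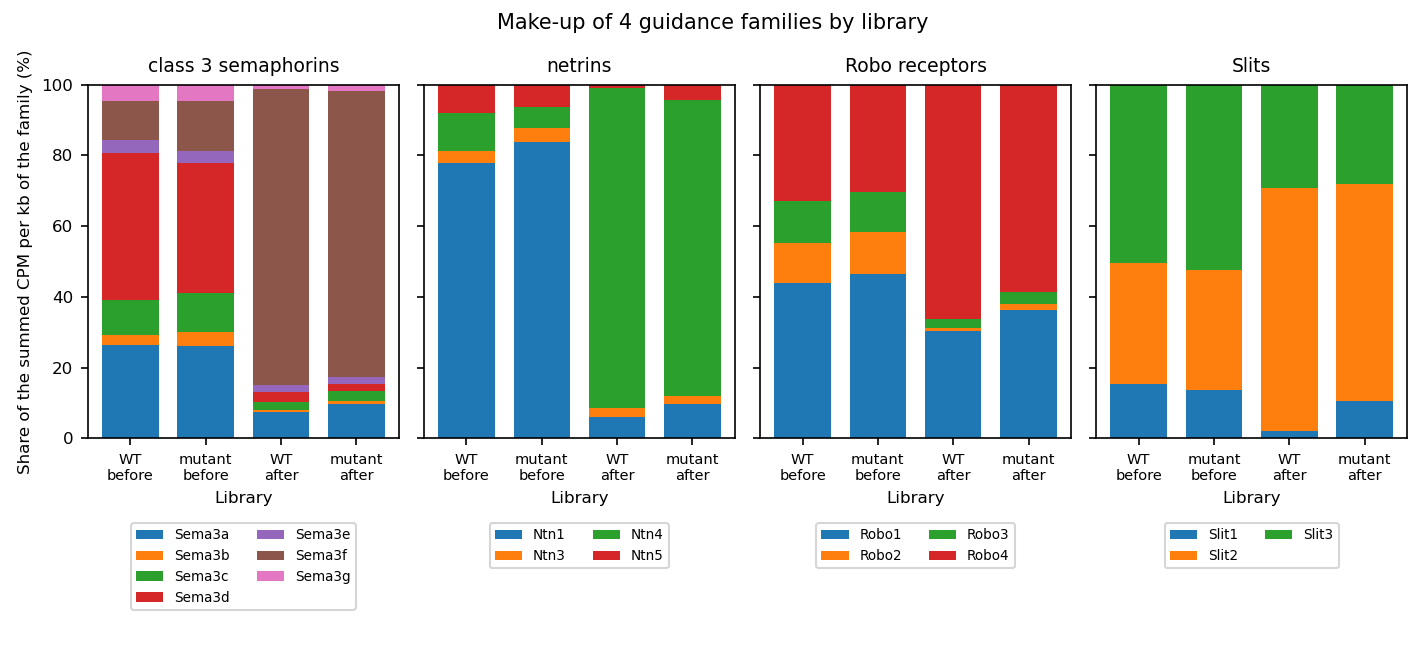
Share of each gene in the summed CPM per kb of its family, in percent, for class 3 semaphorins, netrins, Robo receptors and Slits in the 4 libraries. Sema3f, Ntn4, Robo4 and Slit2 hold the largest shares after culture in both genotypes, where Sema3d, Ntn1, Robo1 and Slit3 did before it.

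Slits were ligands of moderate level. Slit2, the Slit most studied in vessels, had 6.45 and 6.64 CPM per kb in the fresh libraries and 8.49 and 8.74 in the cultured ones (322, 613, 117 and 293 counts), with folds of 1.32 (1.06 to 1.63) and 1.32 (1.14 to 1.52) that were not called and that lay below 1 under CPM by total gene counts. Slit3 had 9.56 and 10.3 CPM per kb in the fresh libraries and 3.62 and 4.0 in the cultured ones (249, 498, 26 and 70 counts); it was called lower in mutant cells, by 2.58-fold (2.01 to 3.37), and had a fold of 0.379 (0.242 to 0.568) in wild type cells. Slit1, the Slit most tied to the nervous system, had 85, 145, 2 and 29 counts. It was called lower in wild type cells with a fold of 0.0853 (0.0102 to 0.318), which rests on the 2 counts after culture, and had a fold of 0.551 (0.356 to 0.825) in mutant cells. Slit1 stood above background in neither wild type library. The share of Slit2 among the Slits per length went from 34.1% and 33.7% before culture to 68.7% and 61.4% after it.

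The Robo receptor genes moved apart. Robo4, the endothelial one, had 14 and 13.7 CPM per kb in the fresh libraries and 71.4 and 66.3 in the cultured ones (356, 643, 501 and 1132 counts), and both libraries after culture were above both before it. It rose 5.1-fold (4.44 to 5.86) and 4.85-fold (4.4 to 5.35) in wild type and mutant cells. Robo2, a receptor studied mainly in axons and kidney, had 210, 436, 11 and 59 counts and fell 5.27-fold (2.88 to 10.7) and 2.68-fold (2.04 to 3.58). With background subtracted its wild type drop was 9.01-fold (3.13 to 26). Robo1, the broadly expressed member, had 18.7 and 21 CPM per kb in the fresh libraries and 32.5 and 40.9 in the cultured ones (704, 1462, 338 and 1034 counts) with folds of 1.74 (1.52 to 1.98) and 1.95 (1.8 to 2.11), above 1 and not called. Robo3 had folds of 0.558 (0.33 to 0.897) and 0.706 (0.525 to 0.936). Among the Robo genes per length, Robo4 held 32.9% and 30.3% before culture and 66.3% and 58.8% after it.

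Transmembrane semaphorins of classes 4 and 6 mostly had folds above 1 at the genes with high counts. Sema4c, a plexin B2 ligand, had 14.7 and 18.3 CPM per kb in the fresh libraries and 52.1 and 49.6 in the cultured ones (313, 719, 305 and 706 counts) and rose 3.53-fold (3.01 to 4.15) and 2.71-fold (2.43 to 3.01). Sema4d, the ligand of plexin B1, had 4.74 and 3.76 CPM per kb in the fresh libraries and 22.4 and 15.3 in the cultured ones (112, 164, 146 and 243 counts) and rose 4.73-fold (3.67 to 6.1) and 4.08-fold (3.33 to 5.01). Both genes were higher in each library after culture than in each library before it. Sema6b had 5.56 and 7.85 CPM per kb in the fresh libraries and 30.6 and 26.7 in the cultured ones (110, 287, 167 and 354 counts) and rose 5.5-fold (4.3 to 7.07) and 3.4-fold (2.9 to 3.98). Sema6d, a ligand of plexin A1, had 13.7 and 18 CPM per kb in the fresh libraries and 45.6 and 46.9 in the cultured ones (490, 1192, 450 and 1126 counts) and rose 3.33-fold (2.92 to 3.79) and 2.6-fold (2.4 to 2.83). Sema6a, a ligand of plexin A2 and plexin A4 and the highest of class 6, had 32.3 and 39.5 CPM per kb in the fresh libraries and 69.1 and 61.4 in the cultured ones (1147, 2595, 677 and 1463 counts). Its folds of 2.14 (1.94 to 2.35) and 1.55 (1.46 to 1.66) were not called.

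Class 5 semaphorins, which carry thrombospondin repeats, were called lower in mutant cells and had folds below 1 in wild type cells. Sema5a had 5.01 and 6.6 CPM per kb in the fresh libraries and 2.09 and 1.94 in the cultured ones (270, 657, 31 and 70 counts). Its drop in mutant cells was 3.41-fold (2.66 to 4.42), and it had a fold of 0.416 (0.277 to 0.605) in wild type cells. Sema5b had 89, 209, 7 and 17 counts, a drop of 4.46-fold (2.72 to 7.81) in mutant cells, or 7.54-fold (3.16 to 18) with background subtracted, and a fold of 0.285 (0.111 to 0.612) in wild type cells. Sema7a, the membrane-anchored ligand of plexin C1, had 5.17 and 3.88 CPM per kb in the fresh libraries and 2.21 and 1.81 in the cultured ones (85, 118, 10 and 20 counts) and folds of 0.426 (0.197 to 0.823) and 0.467 (0.275 to 0.754), not called. The remaining class 4 and class 6 genes, Sema4a, Sema4b, Sema4f, Sema4g and Sema6c, held 5 to 162 counts per library and were not called in culture. Their folds ran from 0.263 for Sema4g to 1.4 for Sema4b in wild type cells and from 0.442 to 1.01, for the same genes, in mutant cells.

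Plexins are the signalling receptors of the semaphorins. Plxnd1, the receptor of Sema3e and a gene typical of endothelium, had 140.3 and 171 CPM per kb in the fresh wild type and mutant libraries and 544 and 489 in the cultured ones, from 4829, 10887, 5161 and 11284 counts. It rose 3.87-fold (3.72 to 4.03) and 2.86-fold (2.78 to 2.93) in wild type and mutant cells and held 70.2%, 70.1%, 77.9% and 73.7% of all plexins per length in the same order of libraries. Its share thus moved little while its level rose. Plxnb2 had 15.4 and 21.9 CPM per kb in the fresh libraries and 61.5 and 63.7 in the cultured ones (505, 1326, 555 and 1400 counts) and rose 3.98-fold (3.53 to 4.5) and 2.91-fold (2.7 to 3.14). Plxnc1, the receptor of Sema7a, had 3.68 and 3.46 CPM per kb in the fresh libraries and 12.1 and 16.3 in the cultured ones (134, 233, 121 and 399 counts) and rose 3.27-fold (2.54 to 4.22) and 4.72-fold (4.0 to 5.57). Plxnc1 and its ligand gene Sema7a lay on opposite sides of 1.

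Among class A plexins, which pair with neuropilins, Plxna4 had 8.35 and 7.7 CPM per kb in the fresh libraries and 19.8 and 22.5 in the cultured ones (536, 913, 351 and 967 counts) and rose 2.37-fold (2.07 to 2.72) and 2.92-fold (2.66 to 3.2); in wild type cells the call was lost with background subtracted, at 2.05 (1.77 to 2.37). Plxna1 had 9.55 and 13 CPM per kb in the fresh libraries and 24.6 and 26 in the cultured ones (430, 1082, 306 and 785 counts). It was called higher in wild type cells, at 2.58 (2.22 to 2.99), which background subtraction moved to 2.18 (1.86 to 2.56) and out of the calls, and had a fold of 2.0 (1.82 to 2.19) in mutant cells. Plxna2 had 13.7 and 14.5 CPM per kb in the fresh libraries and 30.5 and 36.4 in the cultured ones (752, 1470, 463 and 1343 counts), was called higher in mutant cells, at 2.52 (2.34 to 2.71), and had a fold of 2.23 (1.98 to 2.51) in wild type cells. Each of these genes was higher in both libraries after culture than in either before it. Plxna3 had 100, 225, 6 and 52 counts and was called lower in wild type cells, by 4.6-fold (2.04 to 12.8). With background subtracted the drop was 8.76-fold (1.04 to 73.4), which ended the call, and the gene stood above background in neither wild type library. Its fold in mutant cells was 0.637 (0.462 to 0.864). Plxnb1 and Plxnb3 were not called, with folds of 0.733 and 0.606 and of 1.12 and 1.14.

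Unc5 receptors bind netrins, and Unc5b, the endothelial one, also binds Robo4. Unc5b had 40.2 and 52.7 CPM per kb in the fresh libraries and 35 and 24.3 in the cultured ones (1176, 2850, 282 and 477 counts). Its fold in culture was 0.869 (0.761 to 0.991) in wild type and 0.461 (0.418 to 0.508) in mutant cells, and neither was called. With background subtracted the fold in mutant cells was 0.398 (0.361 to 0.439) and was called lower. Unc5c had 173, 283, 23 and 32 counts and was called lower in mutant cells, by 3.21-fold (2.22 to 4.78), with a fold of 0.482 (0.298 to 0.747) in wild type cells. Background subtraction took the mutant drop to 5.21-fold (2.58 to 10.5). Unc5d had 130, 201, 9 and 35 counts and was called lower in wild type cells, by 3.98-fold (2.04 to 8.91), with a fold of 0.48 (0.325 to 0.69) in mutant cells. With background subtracted the wild type drop was 6.28-fold (1.43 to 27.6), which ended the call, and the gene stood above background in neither wild type library. Unc5a, from 50, 130, 19 and 73 counts, had folds of 1.38 (0.767 to 2.38) and 1.55 (1.15 to 2.08) and was not called.

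Markers of other cell types moved in culture beside these genes. The 12 stromal markers summed to 3434 and 5460 CPM before culture and 1820 and 1621 after it. Of these, 7 were called lower and 1 higher in wild type cells, and 8 lower and 1 higher in mutant cells. Lum had 0 counts in the cultured wild type library, and Cxcl12 was the stromal marker called higher. Folds lay above 1 for 3 of the 12 in wild type and 2 in mutant cells. The 4 cartilage markers summed to 702 and 1085 CPM before and 244 and 266 after culture, with 3 called lower in each genotype. The 11 neuronal markers summed to 143 and 160 CPM before and 34.2 and 53.8 after, with 5 called lower in wild type and 4 in mutant cells. Stmn2 had 0 counts in the cultured wild type library. The 6 Schwann and neural crest markers went from 61.8 and 81.3 CPM to 34.2 and 25.7, with Foxd3 at 0 in that same library. The 7 leukocyte markers went from 73.3 and 69.1 to 18.2 and 34.7, with Coro1a at 0 there. Above background in the 4 libraries stood 12, 12, 10 and 11 stromal and 4, 4, 4 and 3 cartilage markers. For neuronal markers it was 4, 8, 1 and 1, for Schwann and neural crest markers 1, 3, 3 and 1, and for leukocyte markers 5, 6, 1 and 5. Background was not subtracted from these sums, and its part in their changes was not tested. The part that cells of these types play in the lower levels of Sema3d, Sema3c, Ntn1 and Robo2 was not tested.

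Of the 9 endothelial markers, 8 had folds above 1 in culture in each genotype. Cldn5 went the other way, with 167 and 193 CPM in the fresh wild type and mutant libraries and 125 and 112 in the cultured ones. The 9 markers of endothelium summed to 3962 and 4218 CPM before culture and 11853 and 10741 after it, with 7 called higher in wild type and 6 in mutant cells and 0 called lower. The 6 lymphatic markers summed to 5879 and 5442 CPM before and 6614 and 5413 after it, with 4 of the 6 called lower in each genotype. Lyve1, a sorting marker, rose 3.29-fold and 3.08-fold, and Flt4 was called higher in wild type cells, at 2.33. The 4 called lower were Reln, Mmrn1, Prox1 and Pdpn. Reln fell 53.5-fold and 47-fold in wild type and mutant cells, Mmrn1 6.34-fold and 7.44-fold, and Prox1 2.45-fold and 3.55-fold. Pdpn had 0 counts in the cultured wild type library, against 435 in the fresh one. The 6 smooth muscle and pericyte markers summed to 108 and 121 CPM before and 208 and 227 after culture, with 2 called higher and 1 lower in each genotype. In bulk RNA of this kind, fewer cells of a type and less RNA per cell cannot be told apart. The part of these markers in the higher levels of Plxnd1, Robo4, Ntn4 and Sema3f was not tested.

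Between the genotypes before culture, 0 of 44 guidance genes were called higher in the mutant library, against 0.0158% of all genes tested, and 0 lower, against 0.0475%. The genotype folds lay above 1 for 27 genes and below 1 for 17. Their median log2 fold was 0.14, beside 0.04 over all genes. The interval lay wholly above 1 for 15 genes, against 17.6% of all genes, and wholly below 1 for 3, against 8.54%. That split was 12 and 9 under CPM by total gene counts and 12 and 6 with background subtracted. The shares of all genes under these 2 settings are not given here, so these counts cannot be set against them. CPM by total gene counts shifts log2 folds by -0.11. Background subtraction shifts them by -0.17 through the scaling factors alone and also changes the counts of each gene. Under TMM the 3 genes wholly below 1 were Sema3d, Ntn4 and Sema4a. Their folds were 0.882 (0.821 to 0.948), 0.614 (0.444 to 0.851) and 0.659 (0.468 to 0.932). Sema3a, by contrast, had a fold of 0.989 (0.898 to 1.09) and Plxnc1 of 0.94 (0.757 to 1.17), both with intervals across 1.

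Above 1 were the ligand genes Sema3f, Sema4c, Sema5a, Sema6a, Sema6b, Sema6d and Ntn1 and the receptor genes Plxna1, Plxnb1, Plxnb2, Plxnb3, Plxnd1, Robo1, Unc5a and Unc5b. Plxnd1 had a fold of 1.22 (1.18 to 1.26) and Unc5b of 1.31 (1.22 to 1.4). The largest was that of Plxnb3, at 1.62 (1.19 to 2.24), from 55 and 165 counts, which became 3.7 (1.36 to 10.1) with background subtracted. All 12 stromal markers were above 1 in the same comparison, and all 4 cartilage markers, with 0 of them called; the part of these cells in the genotype folds was not tested. The background rate also differed between these libraries, at 12.6% of gene counts in wild type and 7.97% in mutant.

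**Figure D4:**
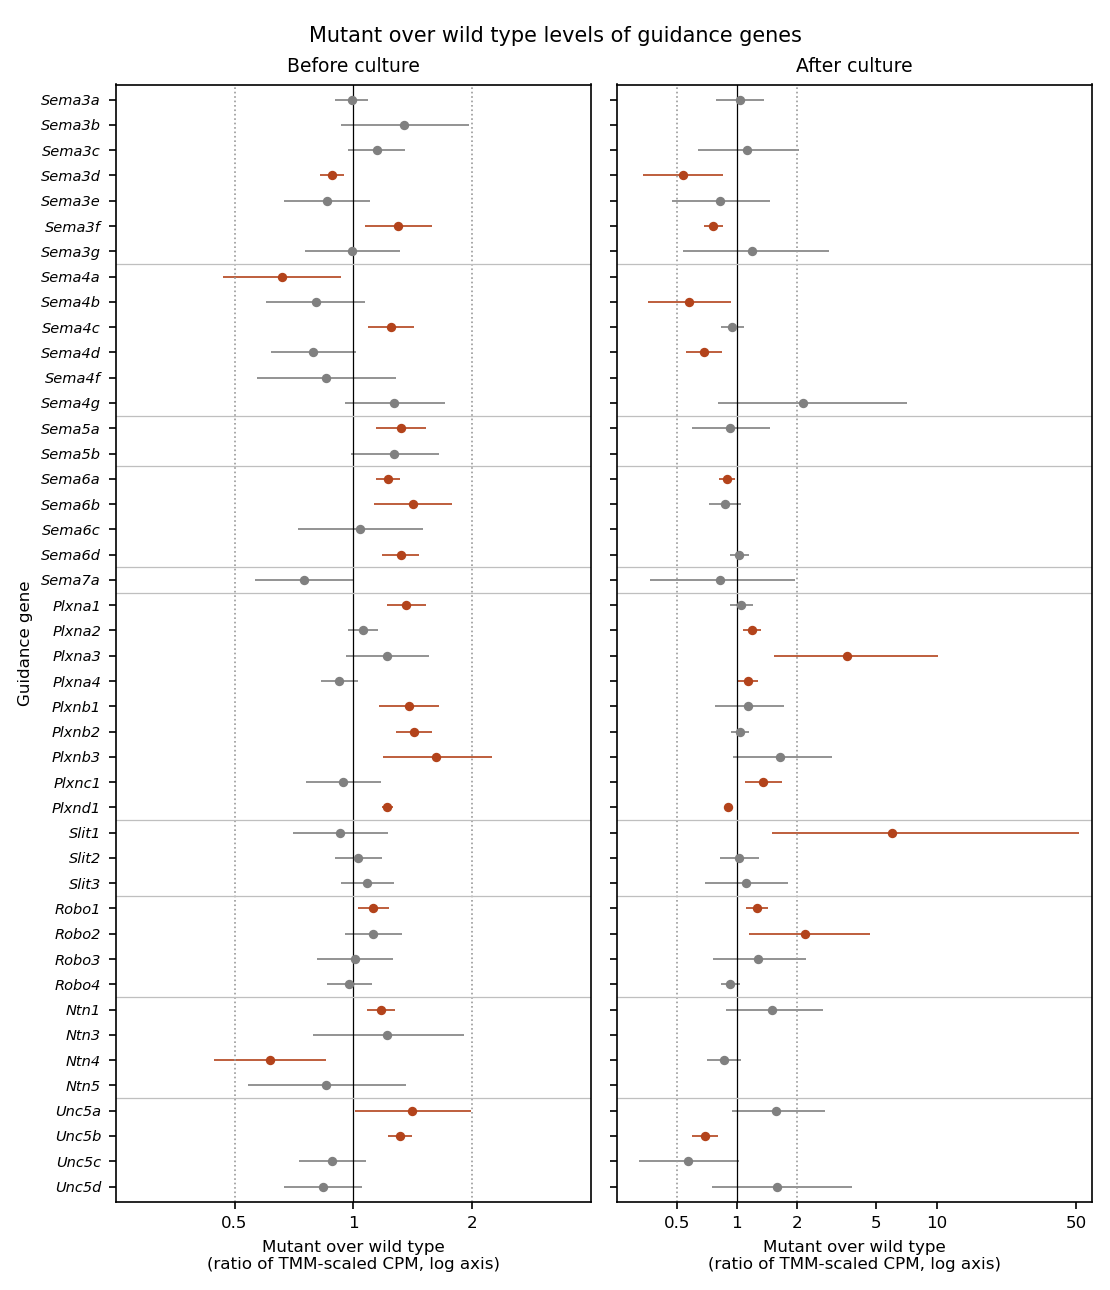
Mutant over wild type fold of each guidance gene, as ratios of TMM-scaled CPM on log axes with 95% intervals for counting error, before culture (left, 44 genes) and after it (right, 37 genes with at least 20 counts in 1 of the libraries). Orange marks intervals that leave out 1, and dotted lines mark 2-fold: no interval lies wholly beyond 2-fold on either side.

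After culture 37 genes could be compared between genotypes. Of these, 0 were called higher in the mutant library, against 0.244% of all genes tested, and 0 lower, against 0.0731%. The median log2 fold was 0.05, beside 0.00 over all genes, and 22 genes lay above 1 and 15 below, or 18 and 19 with median-of-ratios size factors. Intervals lay wholly below 1 for 7 genes, against 12.3% of all genes, and wholly above 1 for 7, against 9.48%. Those below were Sema3d, at 0.537 (0.34 to 0.853), Sema3f, at 0.765 (0.683 to 0.857), Sema4b, at 0.578 (0.359 to 0.94), Sema4d, at 0.684 (0.555 to 0.846), Sema6a, Plxnd1 and Unc5b. Those above were Plxna2, Plxna3, Plxna4, Plxnc1, Slit1, Robo1 and Robo2. Plxnc1 had 121 and 399 counts in the wild type and mutant libraries and a fold of 1.36 (1.1 to 1.68). The larger folds rested on few counts: Slit1 had 2 and 29 counts and a fold of 5.96 (1.51 to 51.5), Plxna3 had 6 and 52 counts and a fold of 3.56 (1.53 to 10.2), and Robo2 had 11 and 59 counts and a fold of 2.2 (1.15 to 4.65). With background subtracted Plxna3 was at 7.59 (0.907 to 63.4), across 1, and Slit1 had no counts left in the cultured wild type library.

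The ratio of the genotype fold after culture to that before it left 1 outside its interval for 15 of 44 genes. It lay above 1 for 5, against 6.31% of all genes, and below 1 for 10, against 15.7%. The 5 were Plxna3, Plxna4, Plxnc1, Robo2 and Slit1. The 10 were Plxna1, Plxnb2, Plxnd1, Sema3d, Sema3f, Sema4c, Sema6a, Sema6b, Sema6d and Unc5b. For Unc5b the ratio was 0.53 (0.451 to 0.624), for Sema3f 0.588 (0.472 to 0.733), for Sema3d 0.608 (0.392 to 0.945) and for Plxnc1 1.44 (1.07 to 1.93). Sema3d was below 1 in the mutant in both culture states and Plxnc1 was on different sides of 1. The split turned with the scaling, to 9 above and 6 below 1 with CPM by total gene counts, against 11.8% and 8.12% of all genes. With background subtracted 6 lay below 1, against 9.81%: Plxnb2, Plxnd1, Sema3f, Sema6a, Sema6b and Unc5b. This ratio uses the same 4 libraries as the other comparisons, and each library enters both a genotype and a culture fold.

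Of 47 further genes of the same pathways, 46 were found in the table; Draxin had no match. Between genotypes 0 of 46 were called before culture and 0 of 43 after it. In culture 9 were called higher and 5 lower in wild type cells, beside 8.17% and 5.77% of all genes, with a median log2 fold of 0.33. In mutant cells 8 were called higher and 3 lower, beside 5.19% and 3.62%, with a median of 0.22. Both medians lie above those of all genes, -0.04 and -0.10.

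The neuropilins, co-receptors of class 3 semaphorins, differed. Nrp1 had 467, 1118, 1093 and 2768 counts in the 4 libraries and rose 8.48-fold (7.61 to 9.48) in wild type and 6.82-fold (6.36 to 7.32) in mutant cells. Nrp2, which is typical of lymphatic and venous endothelium, had 8523, 15985, 1242 and 3048 counts and folds of 0.528 (0.497 to 0.561) and 0.525 (0.505 to 0.546), below 1 and not called. Of the netrin receptors, Dcc had 151, 229, 2 and 35 counts, was called lower in wild type cells at 0.048 (0.00576 to 0.176), and had a fold of 0.421 (0.286 to 0.603) in mutant cells. Its call rests on the 2 counts after culture, and Dcc stood above background in neither wild type library. Neo1, the gene of neogenin, had 492, 904, 374 and 748 counts and rose 2.76-fold (2.4 to 3.16) and 2.28-fold (2.07 to 2.51).

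Among signal transducers, Mical2, an enzyme that oxidizes actin, rose 13-fold (11.8 to 14.4) and 12.1-fold (11.3 to 13). Vasp, an actin regulator, rose 4.47-fold and 2.93-fold, and Arhgef12, Gipc1 and Srgap1 were called higher in both genotypes as well. Srgap1 is a GTPase-activating protein downstream of Robo. Fes and Rras were called higher in wild type cells, at 3.16 and 3.43, and Mical3 in mutant cells, at 2.36. Dpysl4, of the collapsin response mediator family, fell 5.66-fold and 3.7-fold. Rgma, Dpysl5 and Srgap3 were called lower in wild type cells, at 0.145, 0.215 and 0.304, and Dscam and Ablim1 in mutant cells, at 0.315 and 0.387. The calls of Rgma (0.0292 to 0.44) and Dpysl5 (0.0772 to 0.485) rest on 3 and 6 counts in the cultured wild type library.

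The exons of 8 guidance genes overlap another annotated gene, and no source used here gives the strand setting of the counting, so their counts could include reads of the neighbour. They are Ntn3, Ntn5, Plxna1, Plxna4, Plxnb1, Plxnc1, Unc5a and Unc5c. The longest overlaps were 970 bases of Plxna1 with the antisense gene Gm26811 and 519 bases of Ntn5 with Sec1 on the opposite strand. The Plxnc1 overlap, with Gm48718, is 115 bases on the same strand.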

How the data were processed

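RNA of 4 libraries was read in pairs of 75 bases after preparation with a stranded kit, per the labels' protocols. The authors deposited counts per gene symbol, made with bcl2fastq, STAR and HTSeq 0.11.2 on mm10, per the submitters' processing notes. Duplicates had been removed with sambamba, per the names of the deposited tables. The annotation, the strand setting and the other versions are not stated there. Pairs that HTSeq assigned to no feature came to 66.5% and 53.6% of all pairs, unaligned ones included, for fresh wild type and mutant cells. For cultured ones they came to 20% and 30.3%. Unaligned pairs came to 21.4% and 34.1% for fresh wild type and mutant cells and 67.6% and 56.2% for cultured ones. Such summary rows were kept out of the totals of gene counts.

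Counts were scaled by TMM with edgeR 4.0.16 in R 4.3.3 over the whole table. A fold is a ratio of TMM-scaled CPM with a 95% Clopper-Pearson interval (scipy 1.17.1, Python 3.11.15), computed where 1 of the libraries had at least 20 counts. A gene was called where the whole interval lay beyond 2-fold. The ratio of genotype folds has an interval from the reciprocals of the 4 counts. Medians of log2 folds used a prior count of 2. Since the kit's amplified reads carry no molecular identifiers, they are not independent molecules, and intervals cover counting error only. Exon lengths came from GENCODE vM21 on GRCm38, the assembly of mm10, for 22873 symbols (98.0%). The procedure was tested on simulated counts.

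The genes and lists were chosen with earlier results of these data known. Values in every library were to be given for Sema3a, Sema3d, Plxnc1, every called gene and the highest gene per length of each family. Nrp1, Nrp2, Dcc, Neo1 and called pathway genes were named. Alternatives were CPM by total counts, median-of-ratios size factors (DESeq2 1.42.0), other count minimums, a 1.5-fold threshold, and subtraction of the per-kb rate in 1401 olfactory and vomeronasal receptor genes.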

Additional observations from a re-analysis of the deposited data

Results flagged for a closer look

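The mutant over wild type fold of 4 guidance genes had its counting interval above 1 before culture and below 1 after it. These were Plxnd1, Sema3f, Sema6a and Unc5b, of 37 genes compared in both states, and the same held for 573 of 12294 genes in all (4.66%). None of the 37 went the opposite way, which 95 of the 12294 genes did (0.773%). Plxnd1 had folds of 1.22 (1.18 to 1.26) before and 0.899 (0.87 to 0.929) after culture, a ratio of 0.737. Sema3f had 1.3 (1.07 to 1.58) and 0.765 (0.683 to 0.857), a ratio of 0.588. Sema6a had 1.22 (1.14 to 1.31) and 0.888 (0.81 to 0.974), a ratio of 0.726. Unc5b had 1.31 (1.22 to 1.4) and 0.695 (0.599 to 0.808), a ratio of 0.530. With 1 library per group the differences were not tested. Under CPM by total gene counts the interval of Sema3f before culture reached 1, at 1.21 (0.995 to 1.47), as did that of Sema6a after culture, at 0.931 (0.85 to 1.02). With background subtracted Sema6a after culture was at 0.92 (0.84 to 1.01). Plxnd1 and Unc5b kept both intervals off 1 under the 3 other scalings.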

How the results depend on the processing

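No replicate could be left out, since each group holds 1 library, and the labels carry no replicate numbers to pair by. Fresh and cultured libraries of a genotype share a sort, and an additive fit of genotype and culture, with 1 residual degree of freedom, was not run. Under CPM by total gene counts, wild type cells had 7 genes higher and 15 lower in culture, mutant cells 7 higher (and 12 lower), and the ratio of genotype folds lay above 1 for 9 genes and below 1 for 6. With median-of-ratios size factors, 4 genes were lower in wild type culture. A 1.5-fold threshold gave 13 genes lower in wild type culture and 2 higher in the mutant after culture, Plxna3 and Slit1. The share of all genes called at 1.5-fold is not given here, so these counts cannot be set against it. Plxna3 and Slit1 had 6 and 2 counts in the cultured wild type library. With background subtracted, 6 ratios of genotype folds lay below 1. The cause of these shifts was not tested, apart from the looser threshold, which admits more genes by construction. No called gene changed direction under the scalings run, and the genotype comparison before culture called 0 genes at 2-fold under each scaling. Of 169 gene folds, 52 moved beyond their interval with CPM by total gene counts and 2 with median-of-ratios size factors; with background subtracted 36 of 159 did. Depth limits the wild type library after culture most: at 1694669 gene counts, Slit1, Ntn5 and Sema3b held 2, 1 and 4 counts there.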

Other observations

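Several guidance genes are neighbours on a chromosome, and their folds in culture were set side by side after the values had been seen. Positions are from GENCODE vM21 on GRCm38. Of 8 pairs that follow each other directly in the order of guidance genes along a chromosome, less than 2 Mb apart, 3 lay on the same side of 1 and 5 on opposite sides, in both genotypes. Robo4 (chr9:37401897-37415115, plus strand) and Robo3 (chr9:37415669-37433246, minus strand) lie 0.554 kb apart. Robo4 rose 5.1-fold and 4.85-fold in wild type and mutant cells, while Robo3 had folds of 0.558 and 0.706. Sema3b (chr9:107597674-107609229) and Sema3f (chr9:107681500-107710475), both on the minus strand, lie 72.3 kb apart, with folds of 0.345 and 0.238 for Sema3b against 11.3 and 6.66 for Sema3f. Robo1 and Robo2 on chromosome 16 lie 846 kb apart and also had folds on opposite sides of 1.

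Sema3d (chr5:12383385-12588948), Sema3a (chr5:13125414-13602565) and Sema3e (chr5:14025276-14256689) follow each other on chromosome 5 and had folds below 1 in both genotypes. They were 0.107 and 0.065 for Sema3d, 0.416 and 0.436 for Sema3a, and 0.725 and 0.697 for Sema3e, in wild type and mutant cells. Ntn4 and Plxnc1 on chromosome 10, 1044 kb apart, were the same-side pair above 1.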
